A study of Mus musculus with 16 samples.

Results

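Mast cells are tissue immune cells packed with granules of proteases, histamine and heparin, which they release when antigen cross-links IgE held on their surface receptor. In the mouse gut they are described as mucosal mast cells, which sit in and under the epithelium and store the chymases Mcpt1 and Mcpt2, and connective tissue mast cells of the submucosa and muscle, which store the chymases Mcpt4 and Cma1 and the tryptases Tpsb2 and Tpsab1. The carboxypeptidase Cpa3 is a granule protease that works beside the chymases. Kit, the receptor of stem cell factor, keeps mast cells alive, and Fcer1a and Ms4a2 are the alpha and beta chains of the high-affinity IgE receptor.

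These 10 genes were taken by name from the arrays, out of 36711 genes with a value, and all 10 were measured. The arrays held colon RNA of 16 mouse pups at weaning. The study's methods describe RjOrl:SWISS mice for this comparison, while the sample labels mention conventional and ex germ-free animals without saying which these pups were. The CSD group held 8 pups delivered by C-section and then nursed by foster mothers that had given birth vaginally, 4 pups each of mothers 3 and 4, and each of these litters gave 2 of either sex. The VD group held 8 vaginally delivered pups whose litters had been exchanged between mothers, 5 pups of mother 5, of which 2 were females, and 3 males of mother 6. The mother is the biological mother, so each delivery mode rests on 2 litters, and delivery mode and litter are nested. Pups of 1 litter are not independent mothers, and p-values over pups measure mainly the spread between pups. Each of the 2 slides carried 4 CSD and 4 VD arrays. No spot was saturated on any array, and between 58.7% (VD pup 11) and 64.9% (VD pup 4) of spots were well above background. CSD pups 7 and 8 had the most spots marked as outliers, 205 and 200. The colonocyte markers Car1, Slc26a3 and Aqp8 were well above background on every array, whereas the small intestinal genes Sis, Lct, Apoa4 and Apoa1 were not well above background on any. The other 2 small intestinal markers, Fabp2 and Fabp6, were so on every array. In the model of CSD against VD given below, their log2 fold changes were 0.63 (SE 0.24, limma adjusted p = 0.207) and -0.08 (SE 0.23, limma adjusted p = 0.907). The summed level of all 6 was 12.37 ± 0.40 for CSD and 11.91 ± 0.27 for VD (SD over 8 pups each). Whether this bears on the values of the proteases was not tested. Values below are log2 intensities after background correction and quantile normalization. Because probes differ in brightness, a gene's level is compared between pups and never with the level of another gene.

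Among the 4 connective tissue proteases, the fitted ratio of CSD over VD, with sex in the model, was 1.51 for Mcpt4, 1.49 for Cma1, 1.40 for Tpsb2 and 1.10 for Tpsab1, but no member passed the test. For the mucosal protease Mcpt1 the fitted ratio was 1.08 and for Kit it was 0.99. Of the 10 members, 0 were called between CSD and VD in the limma model, which fitted delivery mode and sex and took mother as a random effect, at an adjusted p under 0.05, where 1.25% of all genes were called. With unadjusted p, 2 of 10 members (Cma1 and Tpsb2) were under 0.05, against 14.5% of all genes. The log2 fold change was above 0 in 9 of 10 members, against 51.7% of all genes, and its median was 0.14 over the members and 0 over all genes. In whole colon RNA, more mast cells and more transcript per mast cell cannot be told apart.

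**Figure D1:**
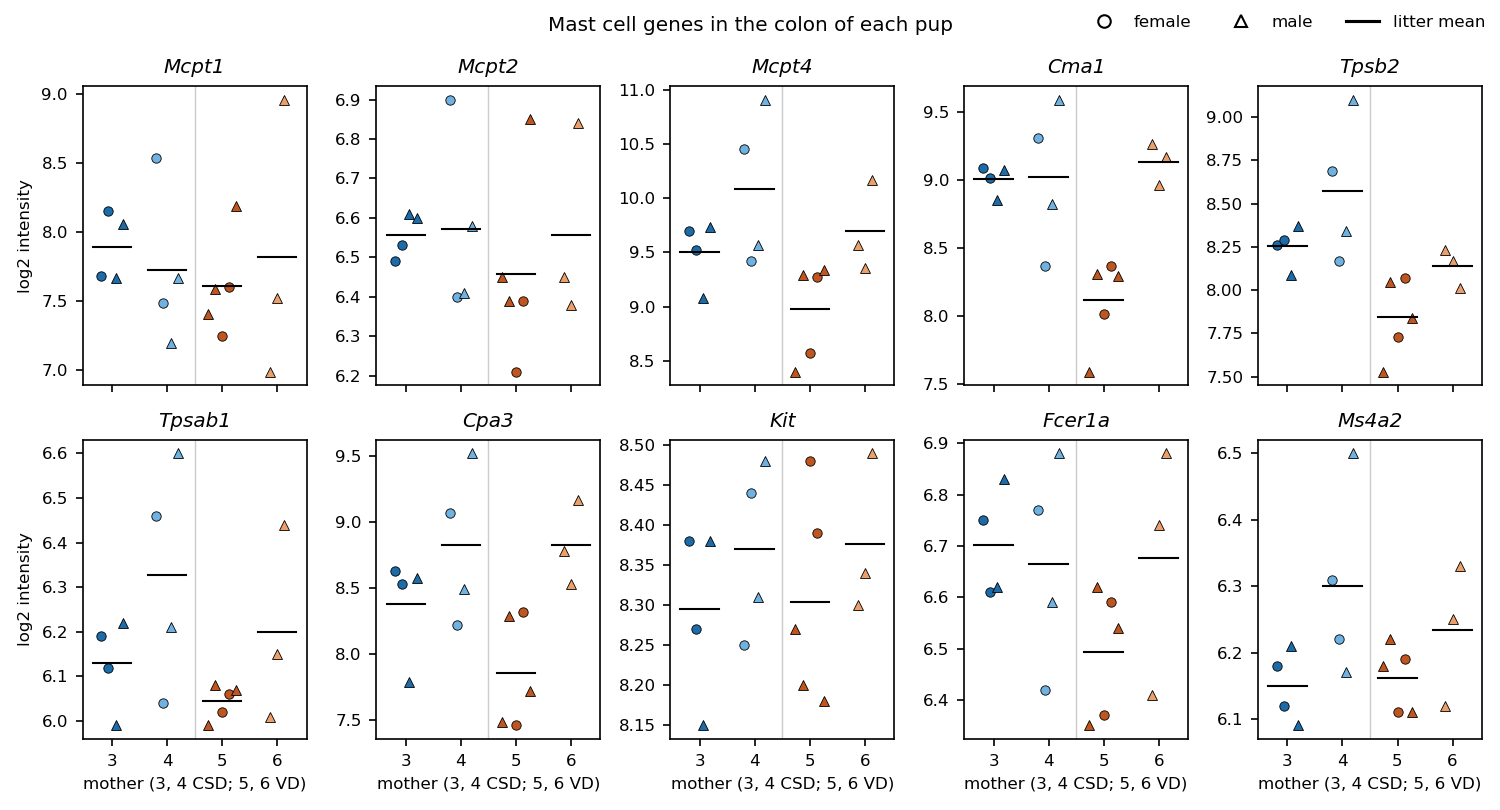
Each panel plots 1 gene as log2 intensity (vertical axis) for the 16 pups, placed by mother (horizontal axis; mothers 3 and 4 are CSD, 5 and 6 are VD), with circles for females, triangles for males and a bar at the litter mean; the vertical scale differs between panels. Cma1 in the litter of mother 5 lay between 7.59 and 8.37, below every pup of mother 6, and the 2 CSD pups highest in Mcpt4 belonged to mother 4.

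The first connective tissue protease, Mcpt4, is the chymase that cleaves extracellular matrix and activates other enzymes. Mcpt4 lay between 9.08 and 10.91 in CSD pups, with a median of 9.64, and between 8.40 and 10.17 in VD pups, with a median of 9.31. CSD pup 7 (10.91) and CSD pup 1 (10.45), both of mother 4, were above every VD pup, and VD pups 10 (8.40) and 4 (8.57) were below every CSD pup, while the other pups overlapped. The mean was 9.80 ± 0.59 for CSD and 9.25 ± 0.55 for VD (SD over 8 pups each). The log2 fold change was 0.60 (SE 0.28, limma adjusted p = 0.349), and a two-sided exact permutation test over the 12870 assignments of pups gave p = 0.0754 for the difference of means. Here and below, the permutation tests shuffled single pups and took no account of litter or sex. They are thus no independent evidence beside the model.

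Cma1 (mast cell protease 5) is the mouse relative of the human chymase gene CMA1. It ranged from 8.37 to 9.59 in CSD pups, with a median of 9.04, and from 7.59 to 9.26 in VD pups, with a median of 8.34. All 8 CSD pups were above the VD median, and 5 VD pups, including VD pup 10 at 7.59 and VD pup 4 at 8.01, were at or below the level of the lowest CSD pup. The VD values formed a low and a high set, which were the litters of mothers 5 and 6. The mean was 9.01 ± 0.36 for CSD and 8.50 ± 0.59 for VD (SD over 8 pups each), a log2 fold change of 0.57 (SE 0.23, limma adjusted p = 0.259, exact permutation p = 0.0519). That fold change was -0.05 (SE 0.21) without the VD litter of mother 5 and 0.90 (SE 0.16) without that of mother 6.

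Tpsb2 encodes the tryptase mast cell protease 6, held in the granule with heparin. Its values ran from 8.09 (CSD pup 8) to 9.10 (CSD pup 7) in CSD pups, with a median of 8.32, and from 7.53 (VD pup 10) to 8.23 (VD pup 6) in VD pups, with a median of 8.03. Of the 8 CSD pups 6 were above the highest VD pup, and the ranges overlapped only through CSD pups 8 and 2 and VD pups 6 and 7. The mean was 8.41 ± 0.33 for CSD and 7.95 ± 0.23 for VD (SD over 8 pups each). The log2 fold change was 0.48 (SE 0.14, 95% interval 0.18 to 0.78), and Tpsb2 had the smallest p of the 10 members (0.00378, limma adjusted p = 0.111 over all genes; exact permutation p = 0.0014). No member had all CSD pups apart from all VD pups, which held for 0.493% of all genes.

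The other tryptase, Tpsab1 (mast cell protease 7), was well above background on 1 CSD and 1 VD array only. Its values were 5.99 to 6.60 in CSD and 5.99 to 6.44 in VD pups, so its log2 fold change of 0.14 (SE 0.09, limma adjusted p = 0.519) came from signals that were mostly not well above background. It also moved with the background correction, to 0.43 with a normexp offset of 0, to 0.77 and 0.79 with the intensities corrected by the scanner software and to 0.38 in the deposited matrix, and was called in none of these.

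Of the mucosal chymases, Mcpt1 was well above background on all 16 arrays. It lay between 7.20 and 8.54 in CSD pups, with a median of 7.67, and between 6.99 and 8.96 in VD pups, with a median of 7.56. The highest pup (VD pup 8) and the lowest pup (VD pup 6) of all 16 were littermates of mother 6, and the CSD range lay inside the VD range. The log2 fold change was 0.11 with a 95% interval of -0.46 to 0.68 (SE 0.27, limma adjusted p = 0.898), an interval that holds the estimates of all 4 connective tissue proteases. Mcpt2 was well above background on 7 CSD and 4 VD arrays, with values of 6.40 to 6.90 in CSD and 6.21 to 6.85 in VD pups. Its log2 fold change was 0.09 (SE 0.10, limma adjusted p = 0.736). With other background corrections Mcpt2 was 0.23 (normexp offset of 0), 0.32 and 0.34 (intensities corrected by the scanner software) and 0.29 (deposited matrix), with no call.

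Whether the proteases of the 2 kinds of mast cell differed in their group effect was tested within pups, as the log2 ratio of each protease to Mcpt1. The CSD minus VD difference of that ratio was 0.43 for Mcpt4 (exact permutation p = 0.145), 0.40 for Cma1 (exact permutation p = 0.2), 0.34 for Tpsb2 (exact permutation p = 0.262) and 0.27 for Cpa3 (exact permutation p = 0.405). None of these 4 two-sided tests passed, with adjusted p between 0.35 and 0.405, so a difference between the mucosal and the connective tissue proteases in their response to delivery mode was not detectable with 8 pups a group.

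Cpa3 was 7.79 to 9.52 in CSD pups, with a median of 8.55, and 7.46 to 9.17 in VD pups, with a median of 8.30. The ranges overlapped, with 3 VD pups below the lowest CSD pup and 1 CSD pup above the highest VD pup. The extremes were CSD pup 7 (9.52) and VD pup 4 (7.46). The means were 8.60 ± 0.52 (SD, n = 8) and 8.22 ± 0.62 (SD, n = 8), with a log2 fold change of 0.42 (SE 0.28, limma adjusted p = 0.54, exact permutation p = 0.197). That fold change was -0.23 (SE 0.32) without the VD litter of mother 5 and 0.75 (SE 0.23) without that of mother 6.

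Of the receptors, Kit lay between 8.15 and 8.48 in CSD and between 8.18 and 8.49 in VD pups, and the mean was 8.33 in both groups (SD 0.11 among the CSD pups and 0.12 among the VD pups, n = 8). The log2 fold change was -0.02, with a 95% interval of -0.14 to 0.11, and the 3 Kit probes differed between groups by 0.04, -0.02 and -0.01. Interstitial cells of Cajal, the pacemaker cells of the gut wall, also carry Kit. Of their 5 markers 3 were above and 2 below 0 (median 0.04), none was called by limma and none had an unadjusted p under 0.05, and their summed level was 15.18 ± 0.09 for CSD and 15.11 ± 0.11 for VD (SD over 8 pups each). Most of that sum was Ano1, with means of 15.11 and 15.05. Their largest log2 fold change was 0.91 for Edn3 (SE 0.63), where the highest CSD pup was 11.45 and the CSD median 6.33. Goblet cells of the deep crypt carry Kit too, and their 7 markers all had a log2 fold change above 0, with none called by limma, 3 at an unadjusted p under 0.05 (against 14.5% of all genes) and 0.54 (SE 0.17, limma adjusted p = 0.13) for Reg4. The part of these cells and of mast cells in the Kit signal was not tested. Fcer1a was 6.42 to 6.88 in CSD and 6.35 to 6.88 in VD pups, with overlapping groups and a log2 fold change of 0.15 (SE 0.08, limma adjusted p = 0.462). Ms4a2 had 1 probe not well above background on any array and 1 that was so on 2 CSD and 3 VD arrays, and its log2 fold change was 0.05 (SE 0.06). Both chains moved under the same alternatives without being called. Fcer1a was 0.31 with an offset of 0, 0.39 and 0.41 with the scanner's corrected intensities and 0.34 in the deposited matrix, and Ms4a2 was 0.11, 0.20, 0.28 and 0.24.

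The position of the litters was examined next, because each delivery mode had 2. Within VD, all 10 members had a lower value in the litter of mother 5 than in that of mother 6 in the model with sex. Of all genes, 52% had a higher value in the litter of mother 5. The median log2 difference was -0.20 over the members against 0 over all genes. Several members moved together over the pups, as given below, so the 10 are not separate signals. The Cma1 mean was 8.11 ± 0.32 (SD, n = 5) in pups of mother 5 and 9.13 ± 0.15 (SD, n = 3) in pups of mother 6. The log2 difference was -1 (SE 0.24, limma adjusted p = 0.0745), beside a log2 fold change of 0.57 between delivery modes. As ratios these are 2-fold and 1.49-fold. Cpa3 differed by -0.98 (SE 0.32, limma adjusted p = 0.202) and Mcpt4 by -0.70 (SE 0.35, limma adjusted p = 0.488). For these 3 genes every pup of mother 5 was below every pup of mother 6, where 8.12% of all genes had these litters apart in either direction and 4.35% in this one, and the closest case was Mcpt4 with 9.34 against 9.36. None of the 10 members was called between these litters at an adjusted p under 0.05, where 0.874% of all genes were called, and 2 of 10 (Cma1 and Cpa3) had an unadjusted p under 0.05, against 11.5% of all genes. Mother 6 had only male pups, so sex and litter were separated only through the pups of mother 5 and the CSD litters.

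Within CSD, Mcpt4 averaged 9.51 ± 0.30 (SD, n = 4) in pups of mother 3 and 10.09 ± 0.71 (SD, n = 4) in pups of mother 4, a log2 difference of -0.58 (SE 0.33, limma adjusted p = 0.739). Cma1 did not show this split, with 9.00 and 9.02. Tpsb2 differed by -0.32 (SE 0.17, limma adjusted p = 0.714). In the litter of mother 4, pups 1 and 7 were above pups 2 and 6 in every member except Kit. The share of all genes with this split was not computed, and several members moved together over the pups. The split therefore describes these 4 pups and is no result about the members. Pups 1 and 7 were on slide 1 and pups 2 and 6 on slide 2, so within this litter the split and the slide cannot be told apart. None of the 10 members was called between the CSD litters, where 0.0872% of all genes were, 1 of 10 (Ms4a2) had an unadjusted p under 0.05, against 7.69%, and no member had all pups of 1 litter apart from the other, against 4.06% of all genes.

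**Figure D2:**
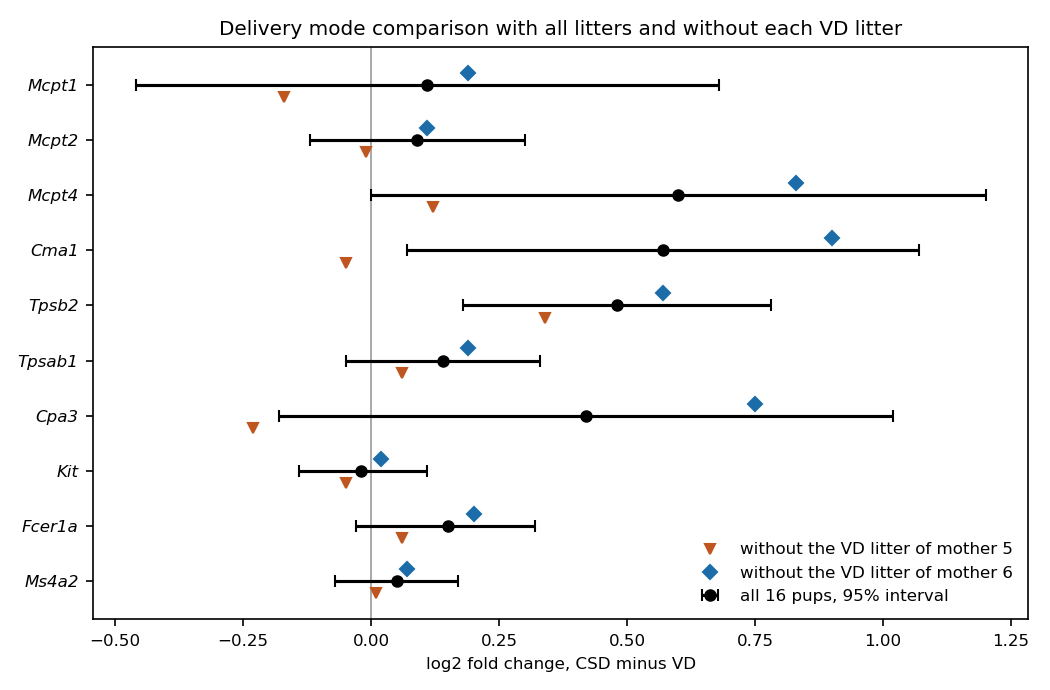
The log2 fold change of each member between CSD and VD (horizontal axis) is plotted for all 16 pups as a black point with its 95% interval, and again with the VD litter of mother 5 left out (triangles) or that of mother 6 (diamonds). Cma1 was -0.05 when mother 5 was left out and 0.90 when mother 6 was, and Tpsb2 was 0.34 and 0.57.

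Set against only the litter of mother 6, CSD pups no longer had higher estimates in several members. Without the litter of mother 5, the log2 fold change of Cma1 was -0.05 (SE 0.21), that of Cpa3 -0.23 (SE 0.32), that of Mcpt4 0.12 (SE 0.37) and that of Tpsb2 0.34 (SE 0.20, limma adjusted p = 0.521). Without the litter of mother 6, Cma1 (0.90, SE 0.16, limma adjusted p = 0.00818) and Tpsb2 (0.57, SE 0.14, limma adjusted p = 0.0333) were called, in a fit that called 2265 of all 36711 genes and put 7778 at an unadjusted p under 0.05. Tpsb2 and Mcpt4 were positive in both, and so were Tpsab1 (0.06 and 0.19), Fcer1a (0.06 and 0.20) and Ms4a2 (0.01 and 0.07). With litter means as the samples, 2 against 2, Tpsb2 had a log2 fold change of 0.42 (SE 0.15, limma adjusted p = 0.447), and 0 genes were called over the array. The model used 1 correlation between littermates for all genes, which was 0.0152. Without the CSD litter of mother 4, Mcpt4 was 0.31 (SE 0.29, limma adjusted p = 0.705) and Tpsb2 was 0.30 (SE 0.12, limma adjusted p = 0.312).

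Within the slides, which held 4 pups of each group, the log2 fold changes of Mcpt4, Cma1, Cpa3 and Tpsb2 had higher values on slide 1 than on slide 2. Mcpt4 was 0.90 (SE 0.43) on slide 1 and 0.31 (SE 0.24) on slide 2, Cma1 was 0.90 (SE 0.30) and 0.26 (SE 0.27), and Cpa3 was 0.67 (SE 0.40) and 0.19 (SE 0.27). Tpsb2 was 0.62 (SE 0.25) and 0.35 (SE 0.07). None of these was called within a slide, where limma called 12 of 36710 genes on slide 1 and 0 on slide 2. The difference between slides was not tested. Slide 1 carried VD pups 5, 9 and 10 of mother 5 and VD pup 7 of mother 6. Slide 2 carried VD pups 4 and 11 of mother 5 and VD pups 6 and 8 of mother 6. Slide and VD litter were thus mixed, and the fits within a slide had no term for mother. With slide as a fixed effect, Tpsb2 was 0.48 (SE 0.15, limma adjusted p = 0.13) and Mcpt4 was 0.59 (SE 0.30, limma adjusted p = 0.389). Without CSD pups 7 and 8, Tpsb2 was 0.41 (SE 0.12, limma adjusted p = 0.194) and Mcpt4 was 0.54 (SE 0.28, limma adjusted p = 0.476).

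Neither sex nor its interaction with delivery mode gave a call among the members. Males differed from females by 0.24 (SE 0.24) for Cma1, 0.20 (SE 0.28) for Mcpt4 and -0.03 (SE 0.27) for Mcpt1 on the log2 scale, and 0.0599% of all genes were called. For the interaction 0.00272% of all genes were called, and the smallest unadjusted limma p among the members was 0.143 (Mcpt2). In the comparison by sex and in the interaction, 0 of 10 members had an unadjusted p under 0.05, against 6.45% and 4.72% of all genes.

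The members' values were then set against each other over the 16 pups. Of the 10 genes, 7 were well above background on all arrays and gave 21 pairs, of which 11 passed a permutation test with 100000 resamples after Benjamini-Hochberg adjustment over the 21 pairs. The pairs that passed were all 10 pairs among Mcpt4, Cma1, Tpsb2, Cpa3 and Fcer1a, and the pair of Mcpt1 with Fcer1a. Pups shared litters, so these are not 16 independent mothers.

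**Figure D3:**
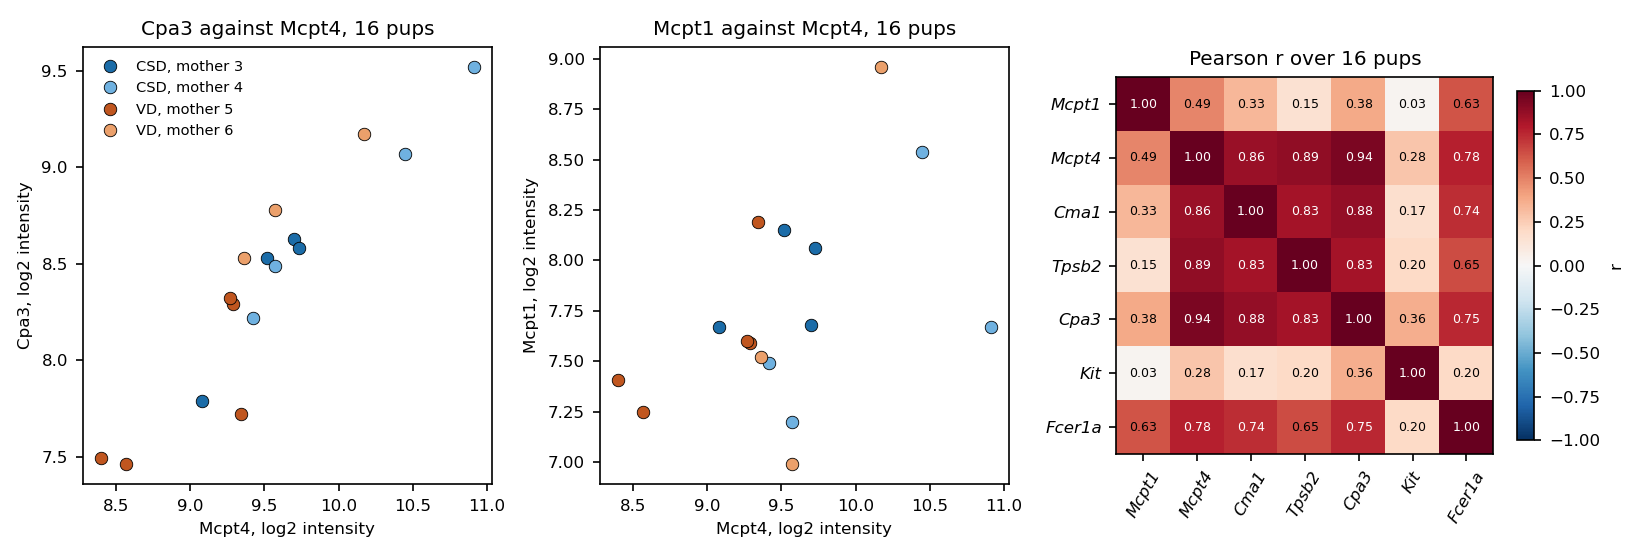
The left and middle plots set Cpa3 and Mcpt1 (vertical axes) against Mcpt4 (horizontal axis), all as log2 intensity, with 1 point per pup coloured by litter, and the right plot gives Pearson r for the 21 pairs of 7 members. Cpa3 followed Mcpt4 (r = 0.94), Mcpt1 had r = 0.49 with Mcpt4, and Kit had r between 0.03 and 0.36 with the others.

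Mcpt4 and Cpa3 had Pearson r = 0.94 and Spearman rho = 0.93, each with an adjusted permutation p of 0.000105 that came from the smallest p the resamples can give. Without CSD pup 7 and VD pup 10, the farthest from the Mcpt4 median, r was 0.90. The relation held inside both groups, with r = 0.97 in CSD (exact permutation p = 9.92e-05) and r = 0.91 in VD (exact permutation p = 0.000694), and inside both slides, with r = 0.94 and 0.97. Mcpt4 with Cma1 had r = 0.86 and rho = 0.90 (adjusted permutation p = 0.00014 for both), with r = 0.82 in CSD and 0.88 in VD. Mcpt4 with Tpsb2 had r = 0.89 and rho = 0.78 (adjusted permutation p = 0.00021 and 0.00361), with r = 0.98 in CSD and 0.73 in VD. On slide 1 that r was 0.97 and on slide 2 it was 0.58 (exact permutation p = 0.141).

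Fcer1a, the IgE-binding chain, followed the same 4 proteases with r of 0.65 to 0.78. The weakest of these was its pair with Tpsb2 (r = 0.65, rho = 0.55), for which the Spearman test did not pass (adjusted permutation p = 0.0581) and r on slide 2 was 0.30. Mcpt1 with Fcer1a had r = 0.63 and rho = 0.68 (adjusted permutation p = 0.0146 and 0.0104), but r was 0.49 without CSD pup 1 and VD pup 8 and 0.27 on slide 1. Mcpt1 with Mcpt4 had r = 0.49 and rho = 0.47 (adjusted permutation p = 0.0979 and 0.121), and r = 0.23 without the same 2 pups. Kit passed with none of the other 6 genes. Its highest r, 0.36 with Cpa3, was 0.64 without VD pups 10 and 4. That r was 0.70 on slide 1 (exact permutation p = 0.056) and -0.12 on slide 2. With Mcpt4, the r of Kit went from 0.28 to 0.02 without CSD pup 7 and VD pup 10. The difference between the correlations of Mcpt1 and of the connective tissue proteases was not tested.

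To find the genes whose pattern was most like these proteases, r over the 16 pups was computed for 20541 genes well above background on every array. The members were left out of these candidates. Cma2, a further chymase gene of mouse chromosome 14, was closest to Mcpt4 (r = 0.99). Cma2 ran from 8.53 to 9.80 in CSD and from 8.09 to 9.12 in VD pups, with a log2 fold change of 0.45 (SE 0.19, limma adjusted p = 0.283). The next were ENSMUST00000202130 (0.82), Eef1d (0.80), 2010103J01Rik (0.80) and NAP111715-1 (0.79), below Cpa3 (0.94), Tpsb2 (0.89) and Cma1 (0.86). For Mcpt1 the closest were Hist1h4m (0.83), Gm9975 (0.79), Sfxn2 (0.77) and Stambp (0.76), and the fifth was a probe for an unnamed transcript (0.74). Cma2 was not among them. As members were not candidates, the list could not hold Mcpt2 or another member protease. The r of Mcpt1 with Mcpt2 was not computed, because Mcpt2 was not well above background on all arrays. These are descriptions over 16 pups that share litters and slides.

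The signals of Mcpt4 and Cma2 came from unlike probes. The first 30 of the 60 bases of 4 protease probes, shown because their signals moved together, were as follows, in lower case throughout.
Mcpt4: tgaaagatgaattctgtgatgatggactgt
Cma2: agctcttctgataacccttgggttcaacaa
Cma1: ataagatcttgagggagaattaactctgga
Cpa3: gccaagtatatcctcaagaatacttcctaa
The Mcpt4 and Cma2 probes shared no run longer than 5 bases, and no probes of different members shared a run longer than 8. The array files place the Mcpt4 probe at chr14:56678589-56678648 on the minus strand, the Cma1 probe at chr14:56560454-56560513 on the minus strand, the Mcpt1 probe at chr14:56638928-56638987 on the plus strand and the Mcpt2 probe at chr14:56662265-56662324 on the plus strand, all in mm9. The probes of the tryptases lie on chromosome 17 and that of Cpa3 on chromosome 3, so the genes that moved together were spread over 4 chromosomes with Fcer1a on chromosome 1.

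The sequences before the start sites of 4 proteases were read from the RefSeq promoter table (GRCm38.p6), which held 7 of the 10 members. GATA factors are known regulators of mast cell genes, so the letters GATA, on either strand (TATC when read on the printed strand), are in capitals in the 150 bases before each start, printed 5′ to 3′ on the gene's strand.
Mcpt4: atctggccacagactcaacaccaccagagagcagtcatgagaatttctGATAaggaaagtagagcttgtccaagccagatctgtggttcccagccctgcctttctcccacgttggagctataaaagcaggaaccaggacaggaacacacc
Mcpt1: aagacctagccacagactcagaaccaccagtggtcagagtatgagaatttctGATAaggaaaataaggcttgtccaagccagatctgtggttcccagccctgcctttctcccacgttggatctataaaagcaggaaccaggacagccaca
Cma1: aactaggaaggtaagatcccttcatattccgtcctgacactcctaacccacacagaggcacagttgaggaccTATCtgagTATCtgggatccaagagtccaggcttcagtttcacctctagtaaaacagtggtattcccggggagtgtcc
Cpa3: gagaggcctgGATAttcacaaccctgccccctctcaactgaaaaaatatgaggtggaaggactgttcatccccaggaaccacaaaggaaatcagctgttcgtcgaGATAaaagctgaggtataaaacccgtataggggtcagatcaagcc
These stretches are chr14:56062311-56062460 (minus strand) for Mcpt4, chr14:56017814-56017963 (plus strand) for Mcpt1, chr14:55944676-55944825 (minus strand) for Cma1 and chr3:20242182-20242331 (minus strand) for Cpa3. Over the 250 bases before the start, Mcpt1 and Mcpt4 were equal in 208 of 254 aligned columns (81.9%) and shared a run of 53 bases, while no other pair of the 7 promoters was above 51.8%. Both held GATA, at 98 and 102 bases before the start, and over the pups the r of these genes was 0.49. In the same 250 bases Cma1 and Cpa3 held 3 GATA each, Ms4a2 held 5, of which 1 pair overlapped, Fcer1a held 2 and Kit held 0, and 53.6% of all 32851 promoters held at least 1. CANNTG, the E-box letters that include CACATG and CACGTG, was found in Cpa3, Fcer1a and Cma1, against 66.2% of all promoters. CACATG was found in Fcer1a only, against 12.3% of all promoters. CACGTG (6.02% of all promoters) and TGANTCA (6.75%) were in none of the 7. These matches describe letters, not bound sites.

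**Figure D4:**
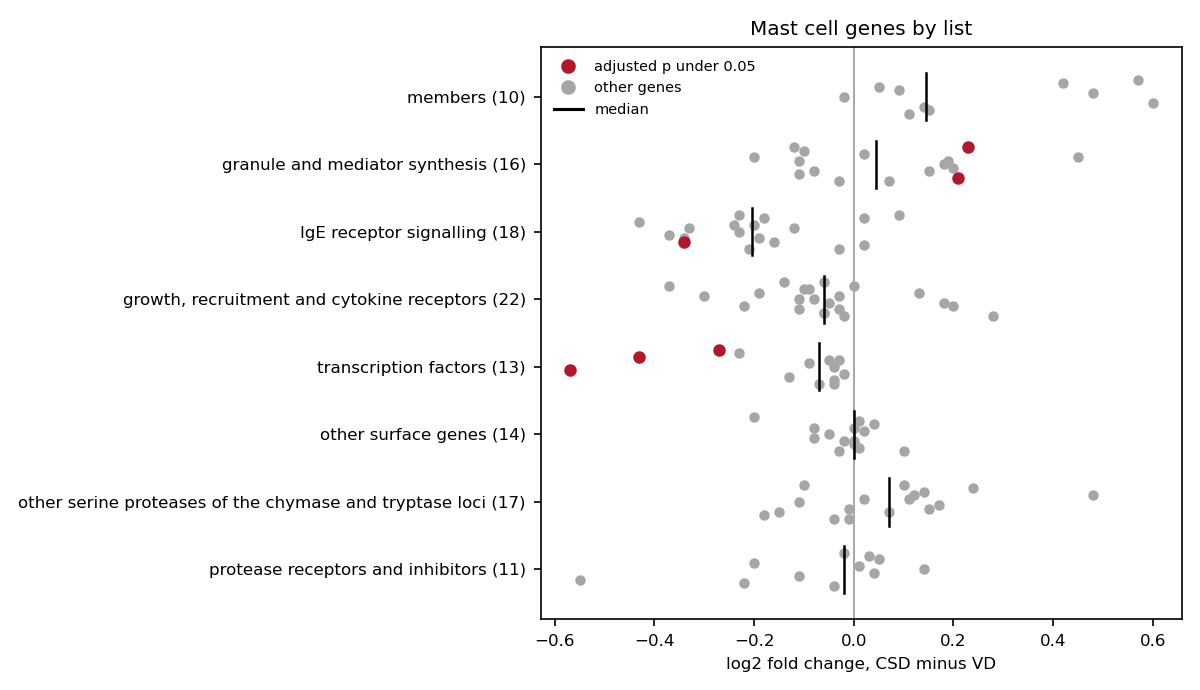
Each point is the log2 fold change between CSD and VD (horizontal axis) of 1 gene, in rows by list with the number of genes measured in brackets, in red where the adjusted p was under 0.05, and with a bar at each list's median. The 10 members had a median of 0.14, and the lists of IgE receptor signalling and of transcription factors lay mostly below 0.

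Genes of mast cell granules and mediator synthesis were measured for 16 of 16, of which 2 rose and 0 fell in the same limma model, against 0.706% and 0.548% of all genes. Both calls were lost with litter means as the samples, where 0 genes of the array were called. Slc18a2, the vesicular transporter that loads amines such as histamine, was 7.91 to 8.16 in CSD and 7.74 to 7.96 in VD pups, so the ranges touched only between 7.91 and 7.96. Its log2 fold change was 0.21 (SE 0.04, limma adjusted p = 0.0382). Rab27a, a small GTPase of granule transport, was 7.67 to 7.90 in CSD and 7.39 to 7.66 in VD pups, without overlap, with a log2 fold change of 0.23 (SE 0.05, limma adjusted p = 0.0288). At an unadjusted p under 0.05 there were 7 of 16, against 14.5% of all genes. The list's median was 0.04, with 9 genes above and 7 below 0, and Hdc, which makes histamine, was 0.07 (SE 0.07, limma adjusted p = 0.728). Slc18a2 and Rab27a are also used by other secretory cells. The 7 goblet cell markers named with Kit had a median of 0.20 and a summed level of 19.31 ± 0.14 for CSD and 19.12 ± 0.11 for VD (SD over 8 pups each), and their part in this list was not tested.

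In IgE receptor signalling, 1 of 18 genes fell and 0 rose, against 0.548% and 0.706% of all genes, and 12 of 18 had an unadjusted p under 0.05, against 14.5% of all genes. In 3 of them the log2 fold change was above 0 and in 15 it was below 0 (median -0.20), where 51.7% of all genes were above 0. Lat2, an adaptor under the IgE receptor that B cells also use, was 6.79 to 7.09 in CSD and 7.22 to 7.47 in VD pups, without overlap. Its log2 fold change was -0.34 (SE 0.05, limma adjusted p = 0.00775). With litter means as the samples that call was lost, as 0 genes of the array were called. Plcg2, the phospholipase of the pathway, was -0.43 (SE 0.12, limma adjusted p = 0.0952). Markers of some other blood cells that use these genes lay the same way. All 4 B cell markers were below 0 (median -0.54). Their summed level was 11.46 ± 0.87 in the 8 CSD pups and 12.16 ± 0.51 in the 8 VD pups (SD), with ranges of 10.45 to 13.08 and 11.46 to 12.77. All 6 T cell markers were below 0, with a summed level of 10.76 ± 0.29 for CSD and 11.14 ± 0.45 for VD. All 6 macrophage markers were below 0 as well, with 12.59 ± 0.20 for CSD and 12.79 ± 0.14 for VD. None of these 16 markers was called by limma, and 4 had an unadjusted p under 0.05, against 14.5% of all genes. The 5 dendritic cell markers were below 0 too (median -0.08), with 9.11 ± 0.09 for CSD and 9.25 ± 0.08 for VD, and 0 of the 5 were called by limma and 2 had an unadjusted p under 0.05. Neutrophil and eosinophil markers did not all lie this way. Of 8 neutrophil markers 3 were above and 5 below 0 (median -0.05), with 12.14 ± 0.29 for CSD and 12.12 ± 0.18 for VD. Of 6 eosinophil markers 3 were above and 3 below 0 (median 0), with 9.19 ± 0.12 for CSD and 9.26 ± 0.12 for VD. The part of all these cells in the signalling list was not tested.

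Of 13 transcription factors of mast cells and their progenitors, 3 fell and 0 rose, against 0.548% and 0.706% of all genes, and 4 of 13 had an unadjusted p under 0.05, against 14.5%. With litter means as the samples, 0 genes of the array were called, so these 3 calls were lost. All 13 were below 0, with a median of -0.07, where 51.7% of all genes were above 0. Lyl1 was 10.06 to 10.90 in CSD and 10.90 to 11.46 in VD pups, with a log2 fold change of -0.57 (SE 0.11, limma adjusted p = 0.0234). Tal1 was -0.27 (SE 0.05, limma adjusted p = 0.0314) and Lmo2 was -0.43 (SE 0.09, limma adjusted p = 0.0382). These 3 act together in blood and vessel-forming cells, red cell precursors among them. All 4 erythroid markers were below 0 (median -0.26), with a summed level of 15.27 ± 0.69 for CSD and 15.87 ± 0.41 for VD (SD over 8 pups each), and none was called by limma. The B cell, T cell, macrophage and dendritic cell markers given above also lay below 0, while those of neutrophils and eosinophils lay on both sides. The part of all these cells in the fall of the 3 genes was not tested. Gata2 and Mitf, which mast cells need for their protease and Kit genes, were -0.03 (SE 0.08) and -0.02 (SE 0.04), and neither was called.

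Among 22 genes of mast cell growth, recruitment and cytokine receptors, 0 were called by limma, against 1.25% of all genes, and 7 had an unadjusted p under 0.05, against 14.5%. Of the 22, 18 were below 0, with a median of -0.06 over the 22, where 51.7% of all genes were above 0. Those 18 included Il4, Il9, Il10 and Il13, which were not well above background on any array. Itgb7, the integrin chain that brings mast cell progenitors and also lymphocytes to the gut, was 11.16 to 11.64 in CSD and 11.58 to 12.09 in VD pups, with a log2 fold change of -0.37 (SE 0.09, limma adjusted p = 0.0509). The medians of the B cell, T cell, macrophage and dendritic cell markers were -0.54, -0.29, -0.16 and -0.08. Those of the neutrophil and eosinophil markers were -0.05 and 0. The part of these cells in this list was not tested. Tgfb1, the cytokine that induces Mcpt1 in cultured mast cells, was -0.22 (SE 0.06, limma adjusted p = 0.097). Among 14 other surface genes of mast cells 0 were called by limma, against 1.25% of all genes, and 0 had an unadjusted p under 0.05, against 14.5%, with Cd33 (-0.08, limma adjusted p = 0.468) and Mrgprx2 (-0.20, limma adjusted p = 0.491) having the smallest p. Among 11 receptors and inhibitors of proteases 0 were called by limma and 2 had an unadjusted p under 0.05, against the same 1.25% and 14.5%, with Serpina1a at -0.55 (SE 0.22, limma adjusted p = 0.242) and Spint1 at -0.22 (SE 0.10, limma adjusted p = 0.339).

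Of 17 other serine proteases of the chymase and tryptase loci 0 were called by limma between CSD and VD, against 1.25% of all genes, and 3 had an unadjusted p under 0.05, against 14.5%. The 2 with the smallest p, Gzmc (0.11) and Mcpt9 (0.12), were not well above background on any array. Between the VD litters, Ctsg (cathepsin G) differed by -0.47 (mother 5 lower, limma adjusted p = 0.0299) and Tpsg1, a membrane tryptase, by -0.83 (limma adjusted p = 0.0158). Both were therefore called, where 0.874% of all genes were, in the litter comparison in which Cma1 had an adjusted p of 0.0745. Of the 3 basophil markers, cells that carry the same IgE receptor, Cd200r3 was not well above background on any array, and Mcpt8 was so on 2 CSD and 3 VD arrays. Prss34 was so on 4 CSD and 5 VD arrays. The summed level of the 3 was 7.85 ± 0.09 for CSD and 7.86 ± 0.05 for VD (SD over 8 pups each). Because these signals were often not well above background, the sum cannot show whether basophils differed.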

How the data were processed

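Scanner output was deposited for 16 1-colour Agilent arrays, with mean intensity, median local background and an intensity corrected by the scanner software per spot. A matrix of log2 values for 27036 genes was deposited too, which the authors corrected, quantile normalized, filtered and averaged by gene with limma 3.38. Here the intensities were processed by the same kind of steps with limma 3.58.1 in R 4.3.3, where the offset and the removal of outlier spots were choices made here and not taken from the study's methods: normexp with an offset of 50, quantile normalization, control spots and outlier spots left out, probes kept if above the array's 5% quantile on at least 4 arrays (56366 of 56605), and probes averaged by gene name. The model fitted delivery mode and sex and took mother as a random effect (duplicateCorrelation), with Benjamini-Hochberg adjustment over 36711 genes. The litter contrasts had litter and sex as fixed effects. The fit was tested on simulated data. All tests are two-sided.

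Members and lists were chosen with earlier results of these data known. Named were all members and, of each list, the called genes or else the 2 with the smallest p; Hdc, Gata2, Mitf, Plcg2, Cma2, Ctsg, Tpsg1 and the marker genes were named with their values known, and the ratios to Mcpt1 were added with the members' values known. Mrgprb13, Mcpt10 and Mcptl were not analysed here. The number of arrays limits precision.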

Additional observations from a re-analysis of the deposited data

Results flagged for a closer look

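In each group of 8 pups, the gap between the highest or lowest pup and the next, divided by the range of the group, was set against Dixon's critical value at 95% for 8 values, in 20 groups in all (10 members in CSD and in VD). Chance alone marks about 1 in 20 groups, and 2 were marked. Mcpt2 in CSD pup 1 was 6.90, with a gap over range of 0.576, and that pup was also the highest CSD pup in Mcpt1 (8.54). Tpsab1 in VD pup 8 was 6.44, with a gap over range of 0.642, and that pup was the highest of all 16 in Mcpt1 (8.96). Both genes were near background: Mcpt2 was well above it on 7 CSD and 4 VD arrays, and Tpsab1 on 1 array in each group. Whether this bears on the marks was not tested.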

How the results depend on the processing

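The calls rest on 2 litters in each delivery mode. Of 379 values of members under alternatives, 356 kept their direction and their side of the threshold, 21 reversed and 2 became called. Tpsb2, Mcpt4, Fcer1a and Tpsab1 were positive under every alternative run. Over all runs that left out 1 pup or 1 litter, the log2 fold change went from 0.12 to 0.94 for Mcpt4, from 0.30 to 0.66 for Tpsb2, from -0.05 to 0.90 for Cma1, from -0.23 to 0.75 for Cpa3, from -0.17 to 0.27 for Mcpt1, from -0.01 to 0.13 for Mcpt2, from -0.06 to 0.03 for Kit, from 0.06 to 0.20 for Fcer1a, from 0.03 to 0.25 for Tpsab1 and from -0.03 to 0.13 for Ms4a2. In those runs 0 to 2 members and 138 to 2265 genes were called, where 2 members (Cma1 and Tpsb2) and 2265 genes came from leaving out the litter of mother 6. Males only gave -0.13 for Mcpt1, -0.01 for Mcpt2 and 0.03 for Kit. Slide 1 alone gave 0.01 for Kit, slide 2 alone -0.04 for Ms4a2, and the model with no sex 0 for Kit. Leaving out CSD pups 7 and 8, an alternative chosen after seeing the data, gave -0.01 for Ms4a2. Each reversed value was smaller in size than its standard error, and the cause was not tested.

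The members called stayed at 0 under the other settings, while the genes called over the array (460) moved. They were 243 with an offset of 16, 102 with an offset of 0, 177 and 164 with the intensities corrected by the scanner software (quantile normalized, or minus the 75th percentile), 170 in the deposited matrix, and 992 with no sex in the model. They were 12 on slide 1 alone, 120 without CSD pups 7 and 8, and 0 on slide 2 alone, in males only and with litter means as samples, which use fewer samples. The count of correlated pairs was 11 under each of the 3 alternatives run. The other comparisons had 0 members called under each alternative run.

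With the replicate number as a block (5 shared numbers, 10 pups), no gene of the array was called, although 4745 were at an unadjusted p under 0.05; Mcpt4 was 0.21, Cma1 0.25, Cpa3 0.06, Tpsb2 0.37, Mcpt1 -0.11 and Mcpt2 -0.04. Pups with the same number shared only the number: their deviations correlated between -0.0492 and 0.215, above 0.1 in 2 of 5 pairs. At an unadjusted p under 0.05 there were 3789 genes on slide 2 alone, 3295 in males only and 4033 with litter means.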
